A study of Mus musculus with 4 samples.

Results

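Nucleic acid sensors and editors are the proteins by which a cell detects RNA or DNA that looks foreign or misplaced, and by which it masks or removes its own. The set described here held 10 genes chosen by symbol, namely Ddx58, Ifih1, Tlr3, Mavs, Zbp1, Eif2ak2, Adar, Trex1, Tbk1 and Irf3. All 10 were found among the 47937 gene entries of the count table. Total RNA of mouse embryonic fibroblasts (MEF cells), connective tissue cells cultured from mouse embryos, was sequenced in 4 libraries. The control group was wild-type and untreated, and the other group was exposed to 50 µM genistein, a plant isoflavone, for 24 h, with 2 libraries each. The genotype label of the genistein libraries names the treatment and gives no genotype. All libraries came from one cell line label, and nothing says whether the 2 libraries of a group came from separate cultures, so p-values measure the spread between these libraries, which may be technical. Genistein was dissolved in dimethyl sulfoxide according to the study's methods, and the labels do not say whether the control libraries received it.

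In this pathway, RIG-I (encoded by Ddx58), MDA5 (Ifih1) and the endosomal receptor TLR3 bind double-stranded RNA. The first pair signals through the mitochondrial adaptor MAVS to the kinase TBK1, which activates IRF3, and IRF3 switches on type I interferon genes. The kinase PKR (Eif2ak2) stops translation when it binds double-stranded RNA, and ZBP1 senses Z-form nucleic acid and can trigger cell death. ADAR edits adenosine to inosine in double-stranded RNA, and TREX1 degrades cytosolic DNA, so both are known to keep a cell's own nucleic acids from being sensed. Several of these genes are themselves induced by interferon.

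Total counts over genes and repeats lay between 28591958 and 31464284 per library. To obtain normalised read counts, each count was divided by its library's effective size and brought to the mean effective size of the 4 libraries. Of the fibroblast markers, 8 of 10 were tested, and Thy1 was at 0 in every library. The summed level was 428200 to 440000 normalised counts in untreated and 408900 to 418100 in genistein libraries. Within this sum Dcn and Fn1 were higher with genistein, by 1.08 and 0.20 on the log2 scale. The other tested fibroblast markers were lower, down to -0.73 for Pdgfrb. Of 8 leukocyte markers, 3 were tested, and the summed level of all 8 was 272 to 281 in untreated and 619 to 659 in genistein libraries. Csf1r and Cd68 carried this difference, the leukocyte marker Ptprc did not exceed 1.01 in any library, and Adgre1 and Laptm5 were at 0 in all of them. The summed level of the epithelial markers, of which 2 of 5 were tested and Epcam was at 0, was 453 to 462 in untreated and 131 to 137 in genistein libraries. That of the endothelial markers, of which 1 of 4 was tested and Tie1 was at 0, was 19.0 to 26.5 and 76.0 to 84.0. That of the pluripotent markers, of which 2 of 4 were tested and Utf1 was at 0, was 36.0 to 37.1 and 50.6 to 62.8. The part of these markers in the differences given here was not tested. In bulk samples, fewer cells of a type and less RNA per cell cannot be told apart.

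The comparison of genistein with untreated cells asked which sensor and editor genes differed after exposure. At an adjusted p-value under 0.05 (quasi-likelihood test of edgeR, Benjamini-Hochberg adjustment across tested genes and repeats together), 6 of the 10 genes were higher with genistein, 1 was lower and 3 did not pass. The background was wide, since 71.7% of the 16240 tested genes passed that threshold, 33.5% as higher and 38.2% as lower. The share of the set that passed in edgeR, 70%, was near this background. With DESeq2 only 3 genes of the set were called higher and 1 lower, where 4050 and 5309 of the 16240 genes were called. The study also asked that the log2 fold change exceed 1 in size and that normalised counts average over 100. None of the 10 genes met these thresholds in either direction (edgeR and DESeq2), against 8.08% of all tested genes, 3.92% as higher and 4.16% as lower. The libraries of the groups did not overlap for 7 genes that were higher and 2 that were lower, where 40.7% and 44.6% of all tested genes did so. Ifih1 and Zbp1 passed the filter on low counts through the genistein libraries alone, so they had to be higher there to be tested. Among the 8 genes measured in both groups, 4 were higher, 1 was lower and 3 did not pass, with a median log2 fold change of 0.13 against -0.03 for all tested genes. The values for all tested genes also count genes that passed the filter through a single group, as Ifih1 and Zbp1 did.

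**Figure D1:**
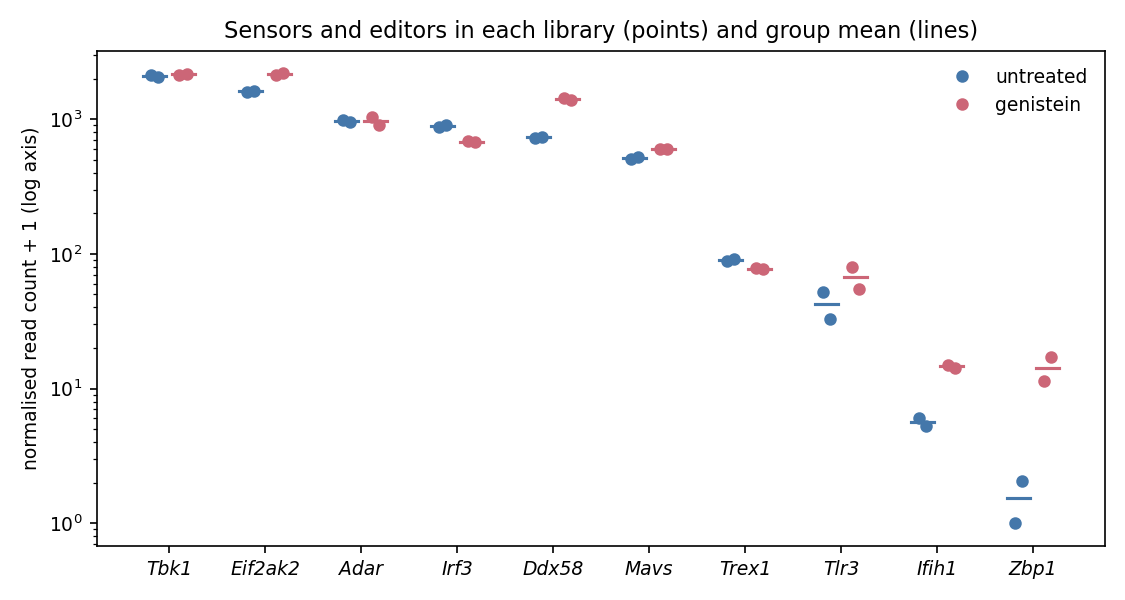
Normalised read count plus 1 (log axis) of each gene in the 2 untreated and 2 genistein libraries, with points for libraries and lines for the group means. Ddx58 sits near 731 in the untreated and near 1411 in the genistein libraries, while Zbp1 and Ifih1 stay under 17 normalised counts in every library.

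Ddx58 encodes RIG-I, the cytosolic helicase that recognises short double-stranded RNA with a 5′ triphosphate. It lies on chromosome 4 from 40203773 to 40239828 (GRCm38, minus strand). Untreated cells gave 724 and 738 normalised counts, and genistein-exposed cells gave 1436 and 1387. Both genistein libraries lay far above both untreated ones. The libraries of the groups were likewise apart for 85.3% of all tested genes. The level was 1.93 times as high, or 0.95 ± 0.05 on the log2 scale (SE, adjusted p = 1.1e-10, edgeR), a change above that of 89% of tested genes. Among the genes of the set with a mean over 100 normalised counts this difference was the largest, and it stopped just short of the fold threshold of the study. When libraries were scaled by their totals alone, the value was 1.02 and passed that threshold.

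Ifih1 encodes MDA5, which recognises long double-stranded RNA. It lies on chromosome 2 from 62595798 to 62646255 (minus strand). It had 5 and 4 raw counts in untreated cells and 15 and 13 after genistein. Both genistein libraries were above both untreated libraries, at a level close to the detection limit. The summed counts had a ratio of 2.95, with an exact 95% interval of 1.35 to 7.10 that covers counting error only. On the log2 scale the difference was 1.53 ± 0.47 (SE, adjusted p = 0.0079, edgeR). Ifih1 had to be higher with genistein to be tested, since it passed the filter on low counts through those libraries alone. The call was lost with DESeq2 (adjusted p = 0.127), without untreated 2 (adjusted p = 0.0657) and without genistein 1 (adjusted p = 0.05).

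Tlr3 encodes the endosomal receptor for double-stranded RNA. It lies on chromosome 8 from 45395665 to 45411080 (minus strand). Untreated cells gave 51.0 and 31.8 normalised counts and genistein-exposed cells 78.8 and 53.7. The higher untreated library and the lower genistein library were nearly level. The difference was 0.68 ± 0.24 on the log2 scale (SE, adjusted p = 0.02, edgeR). Without untreated 2 it was 0.38 and without genistein 1 it was 0.37, and neither value passed (adjusted p = 0.145 and 0.273, edgeR). DESeq2 did not call it either (adjusted p = 0.123). Without untreated 1 or genistein 2 it passed, with values up to 1.06.

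Zbp1 encodes the Z-nucleic acid sensor that can start necroptosis through RIPK3. It lies on chromosome 2 from 173206612 to 173218923 (minus strand). It had 0 and 1 raw counts in untreated cells and 11 and 16 after genistein. The gene was thus at the limit of detection in untreated cells and low in genistein-exposed cells. The ratio of the summed counts was 25.6, with an exact 95% interval of 4.21 to 1047 for counting error. The difference passed the test (adjusted p = 0.00018 in edgeR and 0.011 with DESeq2). Both used the same filter on low counts, which Zbp1 passed through the genistein libraries alone, so it had to be higher to be tested. The size of the difference is imprecise. The fitted log2 fold change of 4.38 lay between 3.48 without untreated 1 and 6.76 without untreated 2. Of the genes that act downstream of ZBP1 in necroptosis, Ripk3 differed by -0.02 (adjusted p = 0.83, edgeR) and Mlkl fell by 0.33 on the log2 scale (adjusted p = 0.0012, edgeR). They are named here after their values were seen.

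Eif2ak2 encodes PKR, the kinase that phosphorylates the translation factor eIF2α. It lies on chromosome 17 from 78852564 to 78882573 (minus strand). Untreated cells gave 1605 and 1613 normalised counts, and 2113 and 2195 were found after genistein. Both genistein libraries lay above both untreated libraries by far more than the spread within a group. The difference was 0.42 ± 0.04 on the log2 scale (SE, adjusted p = 1.2e-07, edgeR). That is a 1.34-fold increase, just inside the interquartile range of all tested genes, which reached from -0.43 to 0.44.

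The promoters of these genes were searched for an interferon-stimulated response element, the DNA motif bound by IRF and STAT complexes, searched as GAAA, any 2 bases and GAAA again on either strand. The search was chosen after the values of the genes were seen. Promoters were taken from RefSeq on GRCm38.p6 as 250 bases before and 50 bases after a gene start, and 9 of the 10 genes had an entry. Zbp1 had none. The motif was found at 1 place each in Ddx58, Ifih1 and Eif2ak2. It was not found in Tlr3, Mavs, Adar, Trex1, Tbk1 or Irf3. Of all 27025 genes with an entry, 3.99% held it. These 3 sites are shown because the genes that hold them all had higher counts with genistein. Of these genes, Ifih1 had to be higher to be tested. Tlr3 and Mavs were called higher without the motif. Capitals mark the motif, and in Ddx58 it lies on the strand opposite to the gene. Each is written on the gene's strand.
Ddx58, chr4:40239804-40239833, minus strand: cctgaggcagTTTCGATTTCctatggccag
Ifih1, chr2:62646206-62646235, minus strand: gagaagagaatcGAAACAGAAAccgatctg
Eif2ak2, chr17:78882535-78882564, minus strand: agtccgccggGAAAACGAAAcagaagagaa
The motif began at base 253, 283 and 269 of the 300-base promoter in Ddx58, Ifih1 and Eif2ak2. All 3 sites thus lay in the 50 bases after the gene start and not in the 250 bases before it. A match describes the letters and not a bound site. Across all tested genes with a promoter entry, 354 held the motif and 9668 did not. At an adjusted p under 0.05 (edgeR), 37.6% and 34.4% of them were higher, and 38.1% and 40.8% were lower. These shares also count genes that passed the filter through the genistein libraries alone.

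**Figure D2:**
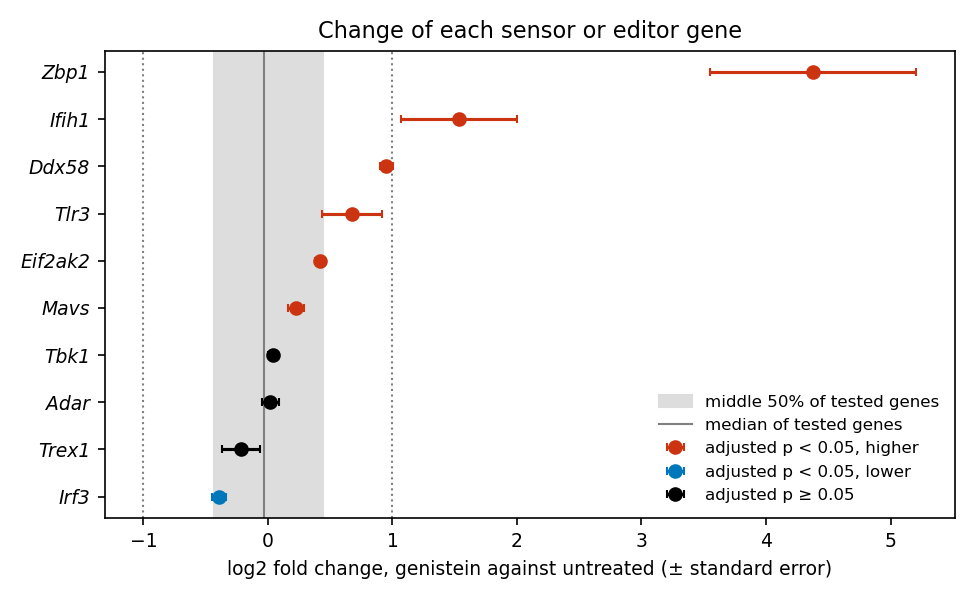
Log2 fold change of each gene (horizontal axis, genistein against untreated) with bars for its standard error, coloured by the call at an adjusted p of 0.05; the grey band is the interquartile range of all tested genes and dotted lines mark the fold threshold of the study. Ddx58 stops at 0.95, Zbp1 and Ifih1 lie beyond 1 with wide errors, and Irf3 is the gene called lower, at -0.39.

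Of the signalling genes downstream of the sensors, Mavs was higher, Irf3 was lower and Tbk1 was not called. Mavs, on chromosome 2 from 131234063 to 131248025 (plus strand), gave 503 and 522 normalised counts in untreated cells against 603 and 596 after genistein. The libraries of the groups did not overlap, as for 85.3% of all tested genes. It was higher by 0.23 ± 0.06 on the log2 scale (SE, adjusted p = 0.0044, edgeR), and it did not pass with DESeq2 (adjusted p = 0.0848) or without untreated 1 (adjusted p = 0.0504, edgeR).

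Tbk1, the kinase shared by the RNA and DNA sensing routes, lies on chromosome 10 from 121546455 to 121586787 (minus strand). It gave 2138 and 2068 normalised counts in untreated cells and 2142 and 2177 after genistein. The difference between the groups was no larger than the spread between the untreated libraries. On the log2 scale it was 0.04 ± 0.04 (SE, adjusted p = 0.39, edgeR). With scaling by library totals alone it was 0.11 and passed (adjusted p = 0.0335, edgeR).

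Irf3, the transcription factor that TBK1 phosphorylates, lies on chromosome 7 from 44997648 to 45002848 (plus strand). It gave 879 and 905 normalised counts in untreated cells and 684 and 675 after genistein. Both genistein libraries were lower than both untreated libraries. Irf3 fell by 0.39 ± 0.06 on the log2 scale (SE, adjusted p = 1.2e-05, edgeR). The antisense neighbour Bcl2l12 shares 88 bases of exon with it, 2.56% of the exonic length of Irf3. Bcl2l12 itself differed by -0.06 on the log2 scale (adjusted p = 0.59, edgeR).

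The editor and the nuclease were not called. Adar, on chromosome 3 from 89715022 to 89753446 (plus strand), gave 984 and 945 normalised counts in untreated cells and 1046 and 909 after genistein. The groups overlapped. The difference was 0.02 ± 0.07 on the log2 scale (SE, adjusted p = 0.79, edgeR), and its sign turned under some alternatives. The interferon-induced long form and the constitutive short form of ADAR share one gene entry, so their balance was not analysed here. Of the exonic length of Adar, 16.8% overlaps the antisense gene Chrnb2, which had at most 4 raw counts in a library.

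Trex1, the main cytosolic DNA exonuclease, lies on chromosome 9 from 109057933 to 109059734 (minus strand). It gave 87.9 and 91.1 normalised counts in untreated cells and 77.8 and 75.9 after genistein. Both genistein libraries were lower. The difference was -0.22 ± 0.15 on the log2 scale (SE, adjusted p = 0.21, edgeR). All of its exonic sequence lies within exons of Atrip on the same strand, so the share of reads assigned to each gene is uncertain. Atrip, an adaptor of the ATR checkpoint kinase, gave 296 and 293 normalised counts in untreated cells and 219 and 220 after genistein. It fell by 0.43 on the log2 scale (adjusted p = 0.00057, edgeR).

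Levels were compared between genes as normalised counts per kilobase of exonic length in the GENCODE M21 annotation. In untreated cells Tbk1 was highest at 538, followed by Eif2ak2 at 315, Irf3 at 259, Mavs at 153, Adar at 119, Ddx58 at 104 and Trex1 at 78.0. Tlr3 at 7.94, Ifih1 at 0.57 and Zbp1 at 0.15 lay far below. The libraries of neighbours in this order did not overlap. In genistein-exposed cells Ddx58 came after Tbk1 and Eif2ak2 at 200.2 and overlapped with Irf3 at 197, while Tbk1 was at 552 and Eif2ak2 at 421. Zbp1 at 3.76 then lay above Ifih1 at 1.67. Their raw counts in these libraries were alike, at 11 and 16 for Zbp1 and 15 and 13 for Ifih1. This order thus rests on their exonic lengths of 3529 and 8165 bases. By the mean over all 4 libraries of both groups, the level of Tbk1 exceeded 82.5% of tested genes and that of Ddx58 51.1%. Tlr3 exceeded 9.43% and Ifih1 0.26%. Among the sensors of the set, the transcripts of PKR and RIG-I were thus the most abundant, and those of MDA5 and ZBP1 were barely detected.

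The genes whose pattern over the 4 libraries was most like that of Ddx58 were Lpl, Akr1c14, Gm15663, Slc31a2 and Arl8a. Their root mean square distances from Ddx58, over log2 values (normalised count plus 1) centred on the gene's mean, were 0.0094, 0.010, 0.011, 0.014 and 0.014. With 4 libraries this likeness is weak, since 579 of 16240 genes lay within 0.1.

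**Figure D3:**
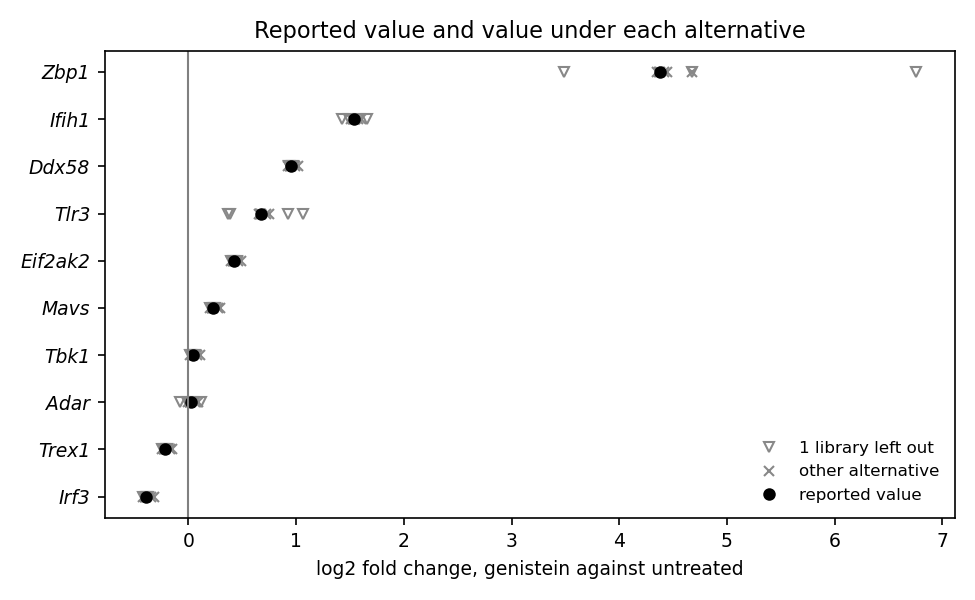
Log2 fold change of each gene as reported (black) and under each alternative (grey), with triangles where 1 library was left out and crosses for another scaling, filter, tool or block. Ddx58, Eif2ak2 and Irf3 stay close to the reported value, Tlr3 spreads from 0.37 to 1.06, and Adar lies on both sides of 0.

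Other genes of the pathway were read from 10 lists that together held 138 genes. Of these, 111 passed the filter on low counts, 6 of them through the genistein libraries alone. Of the 105 measured in both groups, 39 were called higher, 41 lower and 25 in neither direction (adjusted p under 0.05, edgeR). Among all tested genes, 33.5% were higher and 38.2% lower. This background, used for each list below, also counts genes that passed the filter through a single group. The median log2 fold change of the 105 was -0.03, near that of all tested genes. The lists differed in direction, and each is described by its counts.

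Most other RNA sensors and their cofactors were lower. Of 14 tested, 10 (71.4%) were lower and 2 (14.3%) were higher, against 38.2% and 33.5% of all tested genes, with a median log2 fold change of -0.49. Zcchc3, a cofactor of RIG-I and MDA5 signalling, fell by 1.02 on the log2 scale (adjusted p = 1.9e-11). Ddx3x, an RNA helicase, fell by 0.89 (adjusted p = 5e-11) and Tarbp2, a double-stranded RNA binding partner of Dicer and inhibitor of PKR, fell by 0.77 (adjusted p = 5.9e-09, all edgeR). The 2 higher genes were Rnf135, a ubiquitin ligase for RIG-I, at 0.48 and Prkra, an activator of PKR, at 0.20. Dhx58, which encodes the RIG-I relative LGP2, gave 41.0 and 29.6 normalised counts in untreated cells and 35.6 and 27.3 after genistein (adjusted p = 0.58, edgeR). The groups overlapped. The last 3 genes are named after their values were seen.

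Active OAS enzymes bind double-stranded RNA and make a second messenger that leads to RNA cleavage during infection. Not every member of the family need be an active enzyme, and activity was not measured here. Of 8 listed genes, 2 were tested, and both passed the filter through the genistein libraries alone. Oas1c had 2 and 4 raw counts in untreated cells and 21 and 22 after genistein (adjusted p = 8.7e-05, edgeR). Oasl2 had 6 and 6 raw counts in untreated cells and 21 and 17 after genistein (adjusted p = 0.0026, edgeR). Both were low in every library, and both had to be higher after genistein to be tested. Oas1a and Oas1g were at 0 in every library. OAS genes resemble each other closely, so reads may be divided wrongly between them. These genes are named after their values were seen.

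Of the 12 tested DNA sensors, 7 (58.3%) were lower and 3 (25%) were higher, against 38.2% and 33.5% of all tested genes, with a median of -0.18. Ifi204, a member of the interferon-inducible p200 family, gave 1410 and 1333 normalised counts in untreated cells and 585 and 575 after genistein, and fell by 1.24 on the log2 scale (adjusted p = 1.1e-11, edgeR). Its family holds similar copies, so its reads may be shared. Mre11a, a break repair nuclease that also binds cytosolic DNA, fell by 0.79 and Prkdc, the catalytic subunit of the DNA-dependent protein kinase, rose by 0.77 on the log2 scale (adjusted p = 1.4e-10 and 2.3e-10, edgeR). The listed symbol Mb21d1 (cGAS, the enzyme that makes cyclic GMP-AMP on DNA) gave 65.9 and 52.9 normalised counts in untreated cells and 38.5 and 31.4 after genistein and fell by 0.76 (adjusted p = 0.0046, edgeR). Tmem173, its receptor STING, fell by 0.14 (adjusted p = 0.038, edgeR). Aim2, the DNA sensor of an inflammasome, and Ifi203 were the other higher genes, at 0.75 and 0.38. The last 4 genes are named after their values were seen.

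Nucleases, editors and RNA decay genes were divided, with 5 higher and 5 lower of 14, or 35.7% each, close to the shares of all tested genes. Adarb1, which encodes the second adenosine deaminase ADAR2, gave 505 and 556 normalised counts in untreated cells and 1055 and 1022 after genistein. Both genistein libraries were above both untreated ones. It rose by 0.97 ± 0.06 on the log2 scale (SE, adjusted p = 6.6e-10, edgeR), next to 0.02 for Adar. Pnpt1, a mitochondrial RNA-degrading exonuclease, fell by 0.84 (adjusted p = 2e-08) and Dnase1l1, a relative of DNase I, rose by 0.75 (adjusted p = 7.1e-05, both edgeR).

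Adaptors and kinases were also divided, with 6 higher (31.6%) and 7 lower (36.8%) of 19, close to the shares of all tested genes, and a median of -0.05. Ikbke, the kinase IKKε that acts beside TBK1, gave 311 and 295 normalised counts in untreated cells and 786 and 690 after genistein. It rose by 1.28 ± 0.08 on the log2 scale (SE, adjusted p = 3.7e-10, edgeR), next to 0.04 for Tbk1. Ikbkg, the scaffold subunit NEMO, rose by 0.57 (adjusted p = 4.7e-09) and Myd88, the adaptor of most Toll-like receptors, fell by 0.65 (adjusted p = 4.9e-07, both edgeR).

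Transcription factors were mostly higher. Of the 13 measured in both groups, 8 were higher and 1, Nfkb1, was lower, with a median log2 fold change of 0.22. Of all tested genes, 33.5% were higher and 38.2% lower. Irf7, the interferon-induced relative of Irf3, was also called higher but passed the filter through the genistein libraries alone, with 8 and 1 raw counts in untreated cells and 32 and 33 after genistein (adjusted p = 5.3e-05, edgeR). Irf7 and Nfkb1 are named after their values were seen. Irf2, Rel and Stat2 rose by 0.96, 0.94 and 0.62 on the log2 scale (adjusted p = 2.6e-08, 6.5e-09 and 1.5e-07, edgeR). Irf3 of the set thus moved in the other direction from most factors listed beside it.

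Negative regulators showed 4 higher (33.3%) and 5 lower (41.7%) of 12, also close to those shares. Tnfaip3, the ubiquitin-editing enzyme A20, fell by 0.83 on the log2 scale (adjusted p = 1.1e-09, edgeR). Pcbp1, which promotes loss of MAVS, fell by 0.69 (adjusted p = 5.7e-11, edgeR) and Nlrc3, an inhibitor of STING signalling, rose by 0.76 (adjusted p = 1.4e-05, edgeR).

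PKR shares its substrate with 3 other kinases. Eif2ak3 (PERK, the endoplasmic reticulum sensor) rose by 0.43 on the log2 scale, close to the 0.42 of Eif2ak2, while Eif2ak1 and Eif2ak4 fell by 0.16 and 0.20. Their adjusted p-values were 2.8e-06, 0.011 and 0.00031 (edgeR). Eif2s1, the substrate eIF2α itself, fell by 0.93 (adjusted p = 9.9e-13, edgeR). All 10 genes of this list were called, 5 in each direction, where 71.7% of all tested genes were called. The genes that rose most were Ddit3, a stress transcription factor also called CHOP, Atf3 and Trib3, at 2.11, 1.69 and 1.69 (adjusted p = 5.2e-15, 1.6e-09 and 3.7e-11, edgeR). Atf4, of the same list, fell by 0.11 (adjusted p = 0.01, edgeR). These transcripts are not specific to PKR, and the part of PKR or of the other kinases in them was not tested. The kinases, the substrate and Atf4 are named after their values were seen.

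Transcripts of interferons and of most interferon-induced genes were at or near the limit of detection. The 5 interferon genes listed (Ifnb1, Ifna2, Ifna4, Ifnl2 and Ifnl3) were at 0 in every library, which allows up to 3 counts per library. Of 19 interferons and interferon-induced genes, 8 were tested and 4 (50%) were called higher, against 33.5% of all tested genes. Of these 4, 3 passed the filter through the genistein libraries alone. Of the 5 measured in both groups, 1 was higher and 4 did not pass. Gbp2, a guanylate-binding protein, was that gene, with 117 and 118 normalised counts in untreated cells and 408 and 367 after genistein. It rose by 1.73 ± 0.10 on the log2 scale (SE, adjusted p = 3.2e-10, edgeR). Ifit1, Isg15 and Ifit3 were the other 3, and each stayed under 28 normalised counts in every library. Ifit2, by contrast, gave 801 and 776 normalised counts in untreated cells and 701 and 752 after genistein (adjusted p = 0.086, edgeR). Rsad2 and Mx1, strongly interferon-induced antiviral genes, did not exceed 2.02 normalised counts in any library. All but Gbp2 are named after their values were seen. Among receptors and Janus kinases, 5 of 6 were higher, where 33.5% of all tested genes were, led by Tyk2 at 0.74, Ifnar1 at 0.48 and Ifngr2 at 0.35 (adjusted p = 7.1e-08, 2e-08 and 2.2e-05, edgeR), and 1 was lower.

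**Figure D4:**
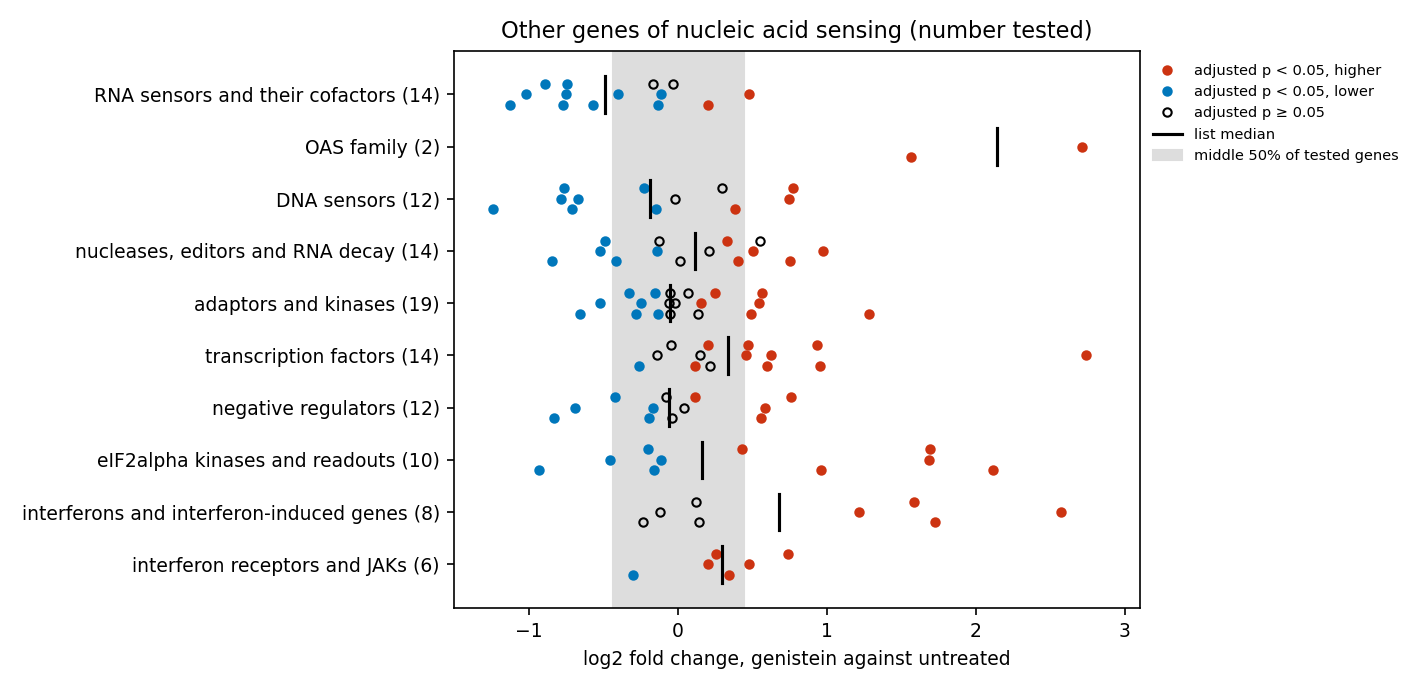
Log2 fold change (horizontal axis, genistein against untreated) of each tested gene in the 10 lists, with the number tested in brackets, filled points for genes called at an adjusted p of 0.05, bars for list medians and a grey band for the interquartile range of all tested genes. RNA sensors lie mostly to the left, with a median of -0.49, and transcription factors mostly to the right, with a median of 0.34 over all 14 tested.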

How the data were processed

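Paired-end reads of RNA without ribosomal RNA were trimmed by the authors with Trim Galore, aligned to mm10 with STAR and counted with TEtranscripts over GENCODE M9 genes and repeats. The deposited table holds whole-number read counts with no normalisation. The kit keeps strand, but the strand setting of the counter was not stated. An entry without a name (at most 0.00314% of a library) was left out.

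Counts of genes and repeats were fitted together with edgeR 4.0.16 in R 4.3.3, after filterByExpr by group (minimum count 10) and scaling by the trimmed mean of M-values, with Benjamini-Hochberg adjustment over 17358 entries. The standard error is the log2 fold change divided by the square root of F. The test was checked on simulated counts. With 2 libraries against 2, an exact permutation test cannot go below p = 0.333. Replicates were separate libraries (chi-square per degree of freedom of 5.48 and 12.1). Symbols were matched to 47224 of 47937 gene identifiers, and exonic lengths came from GENCODE M21 on GRCm38, the assembly of mm10.

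The genes and lists were chosen with earlier results of these data known. A gene of the lists is not reported here, and the lists were counted without it. The text names all 10 genes and, from each list, up to 3 genes with the largest absolute log2 fold change at an adjusted p under 0.05 and a mean over 100 normalised counts. Other names are marked where they appear. Alternatives were 3 other scalings or tables, no filter, DESeq2 1.42.0, a block for the replicate number and the omission of each library in turn.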

Additional observations from a re-analysis of the deposited data

How the results depend on the processing

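Of 99 recomputed log2 fold changes of the 10 genes, 87 kept their direction and side of the 0.05 threshold, 8 lost the call, 1 gained it and 3 reversed. The reversals were all of Adar, which was never called: -0.0060 with no filter, and -0.0811 to 0.117 in the fits that left out 1 library. The calls lost were of Ifih1, Tlr3 and Mavs, and the call gained was of Tbk1 with library totals alone. Ddx58, Eif2ak2 and Irf3 kept their calls under all 10 alternatives. Zbp1 kept its call under the 9 that gave a value, since it did not pass the filter without genistein 2. The number of genes of the set called higher was 3 with DESeq2 and 4 to 5 when 1 library was left out, against 6, and under the thresholds of the study 1 with library totals alone, against 0. List genes past those thresholds, 5 higher and 2 lower, became 9 and 1 with library totals alone and 8 and 1 with repeats left out of the fit, and lay from 6 to 7 and from 1 to 2 when 1 library was left out, with 1 lower without untreated 1. The causes were not tested. The replicate block gave 6 higher and 1 lower gene of the set, and 45 and 41 of the lists, and changed no call of the set. The lists had 49 higher and 32 lower with library totals alone and 46 and 33 with repeats left out, and the balance over all tested genes turned from 5436 higher and 6210 lower to 6085 and 5530, and to 5888 and 5830. Over the 2 shared replicate numbers, deviations from the group means had a correlation of -0.0301, and the labels tie no library to another. Depth limits Ifih1 and Zbp1, with 37 and 28 raw counts over all 4 libraries.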

Other observations

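The interferon-stimulated response element described for Ddx58, Ifih1 and Eif2ak2 was also looked for in the promoters of the 138 list genes, of which 23 held it, 90 did not and 25 had no promoter entry and could not be searched. This count was made after the values were seen. Of the 12 with the motif that were measured in both groups, 6 were higher with genistein, 2 were lower and 4 did not pass (adjusted p under 0.05, edgeR). Of the 77 without it, 29 were higher, 32 were lower and 16 did not pass. Of the 16 without a promoter entry, 4 were higher, 7 were lower and 5 did not pass. Another 4 genes with the motif passed the filter on low counts through the genistein libraries alone. Of all tested genes, 33.5% were higher and 38.2% were lower. Of the 354 tested genes that held the motif, 37.6% were higher and 38.1% were lower. Both of these backgrounds also count genes that passed the filter through a single group. The difference between the groups of list genes was not tested.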
